A study of Mus musculus with 5 samples.

Results

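Transcripts of 5 carriers of sulfate, citrate and dicarboxylates, Slc13a1, Slc13a2, Slc13a3, Slc26a1 and Slc26a6, were followed in single nuclei of the mouse kidney after ischaemia-reperfusion injury (IRI). The members were taken by symbol from the deposited gene list, which held 27998 genes, and each of the 5 symbols matched 1 gene. Slc13a3, the dicarboxylate carrier of the basolateral membrane, was the member with more transcript at every time after injury, reaching 3.54-fold at 96 h in proximal tubule-like nuclei. Slc26a1, the basolateral sulfate exchanger, stood at 0.438-fold at 64 h and at 0.909-fold at 96 h. Slc13a2, the luminal citrate carrier, was 2.11-fold higher at 96 h, and it was the member with more transcript in the late than in the early proximal segment. Slc13a1, the luminal sulfate carrier, was the most abundant member by far. Over all proximal tubule-like nuclei it stayed within 1.31-fold of its level without injury. In nuclei like the early segment alone, whose mix of clusters shifted, its ratio was 1.57 at 96 h. Within the early-segment cluster led by Slc5a12 and Folh1 the Slc13a1 ratio was 1.21 at 96 h. In a cluster led by injury genes it was 0.533 at 64 h.

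All animals were male mice of 10 to 12 weeks that carried Six2-TGC, Rosa26rtTA and pTRE-H2BeGFP. Doxycycline food (625 mg per kg) was given from a few days after birth. It marks the chromatin of cells descended from Six2-expressing nephron progenitors with GFP, so the marking is meant as a lineage label. The GFP-negative library still held 383 proximal tubule-like nuclei, so a lack of GFP was not read as another lineage. Nuclei were sorted for DAPI and then by GFP. Of the 5 groups, 1 held the GFP-negative and 1 the GFP-positive nuclei of uninjured kidneys. The other groups held GFP-positive nuclei collected at 64 h, 96 h or 28 d once both renal pedicles had been clamped and released. Each group was 1 library, so values are descriptions of libraries, no test between groups was possible, and intervals (95%) cover counting error only. The labels call the control animals uninjured while the series' design mentions sham operations, so it is unclear whether they were operated on. Both control libraries carry the same serum values, creatinine 0.122 mg per dL and urea nitrogen 26.1 mg per dL. The injured groups had creatinine of 0.375, 0.312 and 0.144 mg per dL and urea nitrogen of 37.0, 91.8 and 31.7 mg per dL at 64 h, 96 h and 28 d.

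As background, the proximal tubule reclaims sulfate, citrate and other dicarboxylates from the filtrate. The sodium-coupled carrier NaS1 (Slc13a1) takes up sulfate at the brush border, and the exchanger SAT1 (Slc26a1) lets it out at the basolateral side in exchange for bicarbonate or oxalate. NaDC1 (Slc13a2) takes up citrate and succinate from the lumen, whereas NaDC3 (Slc13a3) brings dicarboxylates in from the blood side and so supplies the counter-ions with which organic anion transporters exchange their substrates. CFEX or PAT1 (Slc26a6) exchanges chloride for oxalate or formate at the brush border. The tubule is divided along its length into segments S1, S2 and S3, of which S3 lies in the outer medulla.

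The members lie on 5 chromosomes of the mouse genome (mm10, GENCODE mouse annotation), and all are protein-coding. Slc13a1 is at chr6:24088283-24168092 on the minus strand, Slc13a2 at chr11:78397087-78422217 on the minus strand and Slc13a3 at chr2:165405028-165473230 on the minus strand. Slc26a1 is at chr5:108669878-108675569 on the minus strand, and Slc26a6 at chr9:108853283-108913049 on the plus strand. The whole of Slc26a1 lies inside Idua, which runs on the other strand, and Slc13a2 and Slc13a3 are overlapped by the antisense genes Slc13a2os and Gm14437. Whether the counting used strand is not given in the sources used here. Over all barcodes the overlapping genes had few unique molecular identifiers (UMIs), from 4 to 35 per library for Idua, 3 to 18 for Slc13a2os and 1 to 5 for Gm14437.

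Promoter windows, 250 bases before to 50 bases after a start site, were found in the RefSeq promoter table (GRCm38.p6) for 4 of the 5 members, Slc13a1 being the one not matched, in 5 windows. A window of each of the 3 members with the clearest differences is printed here, 5′ to 3′ on the gene's strand, because these carriers differed in tubule segment or in time course. Capitals mark a match to any of 3 letter strings that resemble sites of hepatocyte nuclear factors, searched on both strands: CAAAGTCCA, AGGTCA and GTTAAT, none of which contains another.
Slc13a3, chr2:165473148-165473447, minus strand: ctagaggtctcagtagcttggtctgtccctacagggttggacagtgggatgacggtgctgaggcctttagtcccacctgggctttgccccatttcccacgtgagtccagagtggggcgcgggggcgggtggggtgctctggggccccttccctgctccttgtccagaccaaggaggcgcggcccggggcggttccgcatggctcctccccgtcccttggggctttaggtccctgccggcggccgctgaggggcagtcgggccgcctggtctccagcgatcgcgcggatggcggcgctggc
Slc13a2, chr11:78422185-78422484, minus strand: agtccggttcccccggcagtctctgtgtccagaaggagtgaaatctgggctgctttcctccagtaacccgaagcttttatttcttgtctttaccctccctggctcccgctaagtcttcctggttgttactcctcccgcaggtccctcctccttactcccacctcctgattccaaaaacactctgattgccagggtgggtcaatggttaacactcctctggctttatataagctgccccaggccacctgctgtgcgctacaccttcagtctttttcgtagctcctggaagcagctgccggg
Slc26a1, chr5:108674747-108675046, minus strand: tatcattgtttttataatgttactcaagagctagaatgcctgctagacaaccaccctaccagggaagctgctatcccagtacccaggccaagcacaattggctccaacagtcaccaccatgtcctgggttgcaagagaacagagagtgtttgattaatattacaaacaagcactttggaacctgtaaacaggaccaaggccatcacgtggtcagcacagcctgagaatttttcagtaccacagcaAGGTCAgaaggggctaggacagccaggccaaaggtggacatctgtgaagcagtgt
A single match was found in the 5 windows, AGGTCA in the printed window of Slc26a1, beginning 5 bases before the start site of that window. The other window of Slc26a1, chr5:108675316-108675615, is not printed. It spans the annotated 5′ end of the gene and held no match. AGGTCA stood in 16.3% of the 32851 windows of the table, CAAAGTCCA in 0.475% and GTTAAT in 7.10%. These are matches of letters and not measured binding.

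The libraries held 3012 to 3508 barcodes and 1922002 to 7153971 UMIs. The 96 h library was the shallowest, with a median of 484 UMIs over all its barcodes against 1793.5 in the GFP-positive library without injury. In the 96 h library 306 barcodes had under 200 detected genes or over 10% mitochondrial UMIs and were left out. Pairs of libraries shared 9 to 20 barcodes. Nuclei were clustered without the 5 members and without the pathway genes described further on, so the carriers did not shape the clusters. Proximal tubule-like (PT-like) nuclei numbered 383 (11.5%) in the GFP-negative library, and 2283 (65.1%), 1916 (63.6%), 2261 (70.6%) and 2147 (65.1%) in the GFP-positive libraries, listed as no injury, 64 h, 96 h and 28 d. All 10 proximal tubule markers, among them Slc34a1, Lrp2 and Hnf4a, were detected in each of these 5 sums. The class was named by these markers, and all 10 were also detected in thick ascending limb-like nuclei of every library. Their detection is therefore no separate support for the name. Different clusters carried the class: those led by Slc5a2 (781 nuclei) and by Slco1a1 and Slc7a13 (856) without injury, the cluster led by Slc5a12 and Folh1 (950) at 64 h, and a cluster led by Fgg (1700) at 96 h.

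Levels are given as UMIs of a gene per 1000000 UMIs summed over the nuclei of a class (CPM). In PT-like nuclei of the GFP-positive library without injury, Slc13a1 stood at 3738 CPM (3683 to 3792), Slc13a3 at 180 (169 to 193), Slc13a2 at 90.0 (81.8 to 98.9), Slc26a1 at 87.9 (79.8 to 96.7) and Slc26a6 at 7.66 (5.39 to 10.6). Slc26a6 rested on 37 UMIs. Set per kilobase of annotated exon, which allows genes to be compared, Slc13a1 had 484 CPM per kb, Slc13a2 37.3, Slc13a3 34.6, Slc26a1 21.7 and Slc26a6 1.41. Per kilobase of the whole gene the level of Slc26a1, a short gene of 5.69 kb, came to 15.5 CPM per kb, second to Slc13a1 at 46.8 and above Slc13a2 at 3.58, Slc13a3 at 2.65 and Slc26a6 at 0.128. Slc13a1 therefore led and Slc26a6 came last on either length, while the order of the other members depended on the length used.

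**Figure D1:**
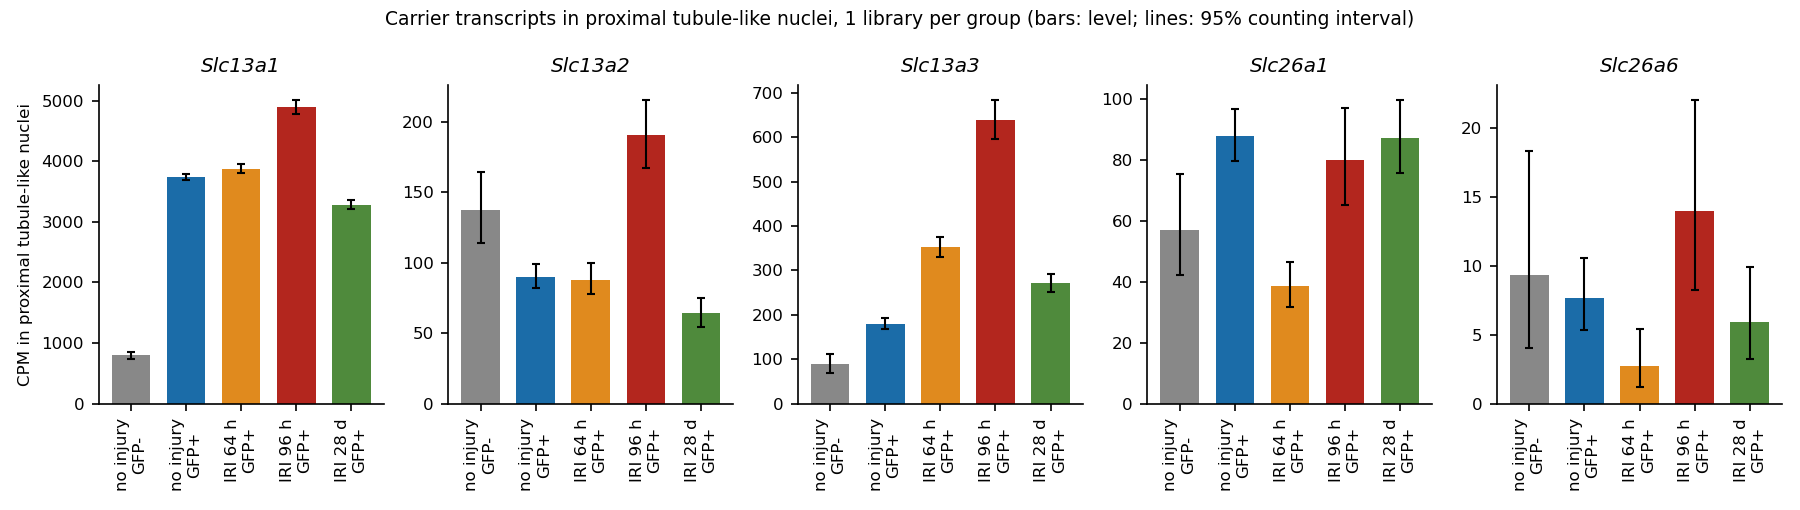
Bars show the level of each carrier in proximal tubule-like nuclei, in CPM, for the 5 libraries, with 95% counting intervals as lines, and each panel has its own vertical axis from 0. Slc13a3 is highest at 96 h (639 CPM), Slc26a1 is lowest at 64 h (38.5 CPM), and Slc13a1 stands far lower in the GFP-negative library (796 CPM) than in the other 4.

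Among the cell classes without injury, PT-like nuclei had the highest Slc13a1 in both libraries, at 3738 CPM in the GFP-positive and 796 CPM (737 to 858) in the GFP-negative one, with intervals clear of the next class. Slc13a2 and Slc26a1 were also highest in PT-like nuclei of both libraries, but their intervals overlapped those of the next class, which rested on few UMIs. Slc13a3 was highest in PT-like nuclei of the GFP-negative library (88.6 CPM, 69.8 to 111). In the GFP-positive library it was second (180 CPM, 169 to 193) to a small unnamed cluster led by smooth muscle genes (252 CPM, 169 to 362), and the intervals overlapped. Slc26a6 could not be ordered, since no class but the PT-like one held more than 3 of its UMIs in either library.

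Slc13a1 transcripts were also counted in nuclei of other cell types, and far more in the GFP-positive library. There the level was 2916 CPM in fibroblast- and mural-like nuclei, 1980 in intercalated-like, 1970 in principal-like, 1563 in connecting tubule-like (CNT-like) and 1496 in distal convoluted tubule-like (DCT-like) nuclei. Thin limb-like nuclei had 812 CPM and thick ascending limb-like (TAL-like) nuclei 223 CPM. The summed level of the 10 proximal tubule markers stood high in the same classes, 8456 CPM in fibroblast- and mural-like, 7631 in intercalated-like, 7421 in CNT-like, 6949 in DCT-like, 4409 in thin limb-like and 1843 in TAL-like nuclei, against 15628 CPM in PT-like nuclei. Per 1000 UMIs of those markers, Slc13a1 had 239 UMIs in PT-like nuclei. It had more in fibroblast- and mural-like (345), principal-like (281) and intercalated-like (260) nuclei, and fewer in DCT-like (215), CNT-like (211), thin limb-like (184) and TAL-like (121) nuclei. In the GFP-negative library the level was 112 CPM in CNT-like, 24.6 in intercalated-like and 22.2 in TAL-like nuclei, and the marker sum 1650, 805 and 557 CPM. The part of free RNA in these values was not tested.

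**Figure D2:**
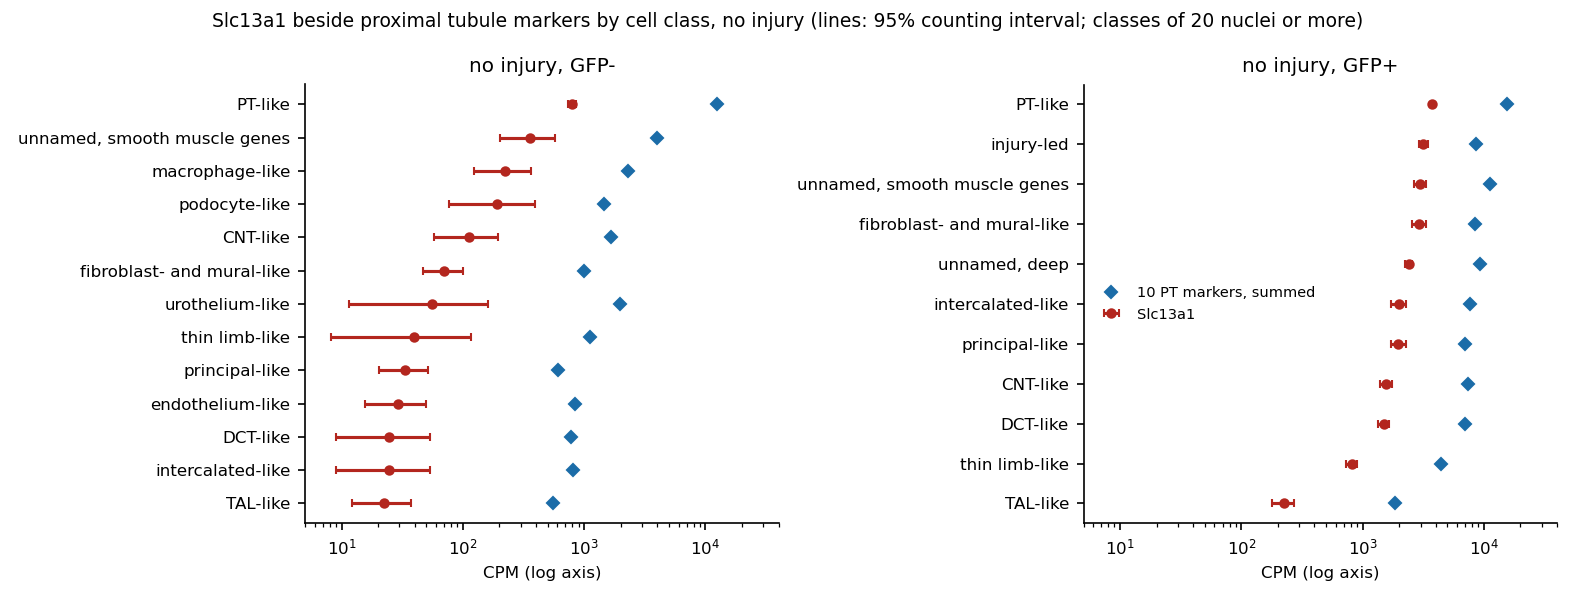
For the libraries without injury, each row is a cell class of at least 20 nuclei, red points are the Slc13a1 level with its 95% counting interval, and blue diamonds the summed level of 10 proximal tubule markers, both in CPM on a log axis. PT-like nuclei lead in both libraries (796 and 3738 CPM), and in the GFP-positive library the other classes reach 223 to 3167 CPM.

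The GFP sort separated the carriers over all nuclei of the uninjured kidney. 4 of the 5 members were at least 1.5-fold higher in the GFP-positive than in the GFP-negative library, where 10.7% of the 15461 genes measured (at least 10 UMIs over both libraries) were, and 0 were at least 1.5-fold lower, where 40.0% of genes were. Slc13a1 was 14.0-fold higher (13.1 to 15.04), at 3029 against 216 CPM. Slc13a3 was 5.34-fold (4.38 to 6.56), Slc26a1 4.20-fold (3.24 to 5.51) and Slc13a2 2.04-fold (1.69 to 2.47) higher. With nuclei thinned to 400 UMIs the ratio of Slc26a1 was 7.90 and that of Slc13a2 4.46. Slc26a6 stood at a ratio of 1.20 (0.710 to 2.08). The share of PT-like nuclei, 65.1% with GFP and 11.5% without, moves with these ratios.

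Within PT-like nuclei the sorts still differed, and so did the segments they held. Slc13a1 was 4.70-fold higher in the GFP-positive PT-like nuclei (4.35 to 5.08), Slc13a3 2.04-fold (1.61 to 2.61) and Slc26a1 1.54-fold (1.14 to 2.12), whereas Slc13a2 stood at 0.655-fold (0.533 to 0.809) and Slc26a6 at 0.821-fold (0.376 to 2.04). The S3-like cluster supplied 54.6% of GFP-negative and 9.55% of GFP-positive PT-like nuclei. Within S1-like nuclei only the Slc13a1 interval lay clear of 1, with a ratio of 1.92 (1.72 to 2.15), from 2045 to 3928 CPM. The S1-like ratios of Slc13a2, Slc13a3, Slc26a1 and Slc26a6 were 1.00 (0.542 to 2.06), 0.853 (0.585 to 1.29), 0.860 (0.547 to 1.42) and 0.314 (0.0987 to 1.31). In S3-like nuclei the GFP-positive library held more Slc13a1 (5.24-fold, 4.15 to 6.69), Slc13a3 (6.89-fold, 2.93 to 19.8) and Slc26a1 (4.75-fold, 1.95 to 13.9) and less Slc13a2 (0.682-fold, 0.488 to 0.948). PT-like nuclei without a segment, 16.4% of the GFP-negative and 44.1% of the GFP-positive ones, had Slc13a1 at 2.41-fold (2.13 to 2.74) but Slc26a1 at 0.528-fold (0.339 to 0.862). The Slc26a1 ratio thus pointed different ways in different segments. In the same comparison CNT-like nuclei had 1563 against 112 CPM of Slc13a1, and the part of free RNA in the ratios was not tested. TMM scaling moved the GFP-negative PT-like sum by -0.30 on the log2 scale against the GFP-positive one.

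The segments were told apart by clusters made without the carriers. S1-like nuclei were those of the clusters led by Slc5a2, which encodes the glucose carrier of the early tubule, and by Slc5a12, and S3-like nuclei those of the cluster led by Cyp7b1 and Slc22a19. The remaining PT-like clusters could not be given a segment. In the GFP-negative library Slc13a1 stood at 2045 CPM (1835 to 2273) in S1-like and at 153 CPM (122 to 190) in S3-like nuclei, a ratio of S3 to S1 of 0.0750 (0.0583 to 0.0954). Slc13a3 was at 178 CPM (120 to 255) in S1-like and 11.0 CPM (4.02 to 23.8) in S3-like nuclei, a ratio of 0.0614 (0.0209 to 0.150). Slc26a1 gave 125 CPM (77.3 to 191) and 11.0 CPM (4.02 to 23.8), a ratio of 0.0877 (0.0290 to 0.225). Slc13a1, Slc13a3 and Slc26a1, both sulfate carriers among them, were thus lower in the late than in the early segment of that library. The whole interval lay past 10-fold for Slc13a1 only. Slc13a3 and Slc26a1 rested on 6 UMIs each in S3-like nuclei.

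Slc13a2 had the other order. In the GFP-negative library it stood at 65.4 CPM (32.6 to 117) in S1-like and 162 CPM (130 to 200) in S3-like nuclei, 2.48-fold higher in S3 (1.32 to 5.16). The ratio was 1.69 (1.23 to 2.29) in the GFP-positive library without injury, from 65.7 to 111 CPM, and 2.46 (1.12 to 5.19) at 96 h, from 156 to 384 CPM. At 28 d it was 1.55, with an interval that included 1 (0.833 to 2.79). At 64 h the S3-like cluster held 7 nuclei with 2 Slc13a2 UMIs, too few to read.

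In the GFP-positive libraries the S3 to S1 gap of the other carriers was smaller. Slc13a1 had a ratio of 0.205 (0.186 to 0.224) without injury, 0.216 (0.156 to 0.292) at 96 h and 0.314 (0.280 to 0.352) at 28 d. For Slc13a3 the ratio was 0.496 (0.354 to 0.681), 0.239 (0.0855 to 0.539) and 0.370 (0.235 to 0.562), and for Slc26a1 without injury and at 28 d it was 0.485 (0.321 to 0.710) and 0.294 (0.123 to 0.606). The Slc13a1 level of S3-like nuclei without injury, 804 CPM, lay below the 1563 CPM of CNT-like nuclei in the same GFP-positive library, whereas in the GFP-negative library it lay at 153 against 112 CPM (57.8 to 195). In the GFP-positive library the S3-like level stood close to that of thin limb-like nuclei (812 CPM) and above that of TAL-like nuclei (223 CPM).

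**Figure D3:**
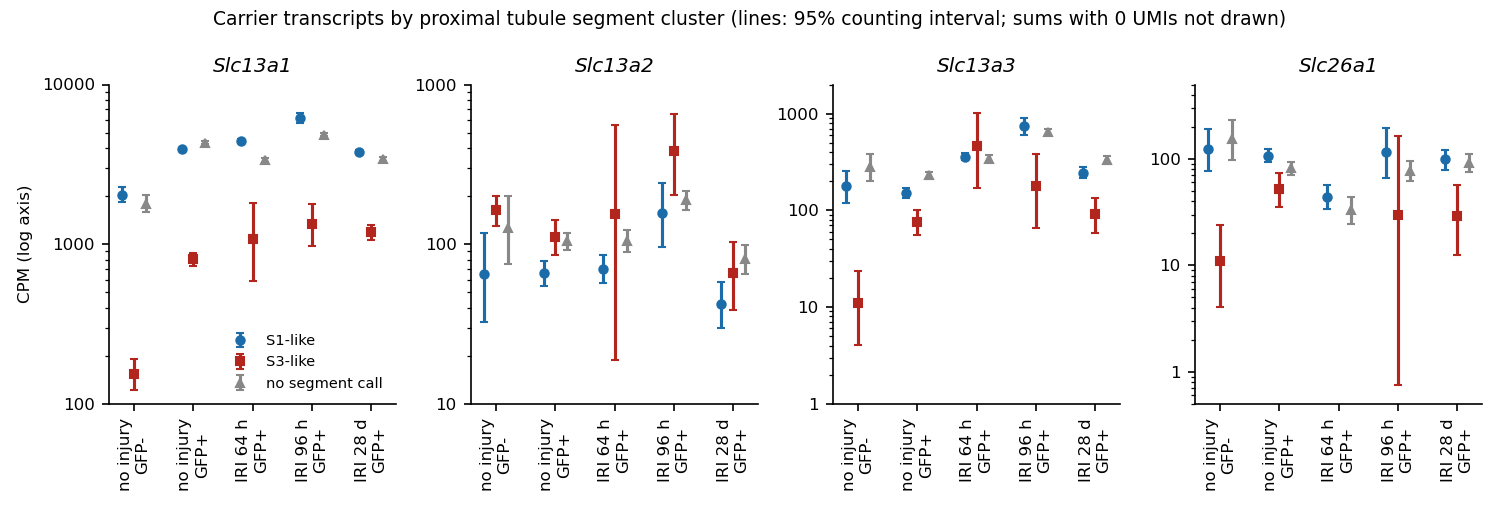
Points show the CPM of 4 carriers on log axes in S1-like (circles), S3-like (squares) and unassigned (triangles) proximal tubule-like nuclei of each library, with 95% counting intervals. Slc13a1 is lower in S3-like than in S1-like nuclei of both libraries without injury and at 96 h and 28 d, whereas Slc13a2 is higher in S3-like nuclei of both libraries without injury and at 96 h, from 65.4 to 162 CPM in the GFP-negative one. The 64 h S3-like points rest on 7 nuclei.

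After injury the carriers of PT-like nuclei did not move as a group. The comparisons at the 3 times share the GFP-positive library without injury. At 64 h, 2 of the 5 members were at least 1.5-fold lower, Slc26a1 and Slc26a6, and 1 was higher, Slc13a3, where 14.9% of the 13315 genes measured were lower and 26.6% higher. At 96 h, 0 were lower and 3 were higher, Slc13a2, Slc13a3 and Slc26a6, against 15.9% and 39.2% of 12998 genes. At 28 d, 0 were lower and 1 was higher, Slc13a3, against 12.1% and 16.5% of 13104 genes. The median log2 ratio of the members was -0.03, 0.79 and -0.19 at 64 h, 96 h and 28 d, and that of all measured genes 0.16, 0.29 and 0.06. Scaling by trimmed means (TMM) lowered all log2 ratios by 0.21, 0.40 and 0.11.

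Of the sulfate carriers, luminal Slc13a1 stood at 3738 CPM without injury. At 64 h its level was 3877 CPM (3806 to 3950), at 96 h it was 4891 CPM (4771 to 5014), and by 28 d it was 3285 CPM (3212 to 3359). The 96 h library was the highest and the 28 d library the lowest. The ratios to no injury were 1.04 (1.01 to 1.06), 1.31 (1.27 to 1.35) and 0.879 (0.856 to 0.903), and with TMM scaling the first and second fell below 1, to 0.894 and 0.990. In S1-like nuclei alone the ratio at 96 h was 1.57 (1.45 to 1.69). The mix of S1-like clusters shifted, and within the cluster led by Slc5a12 and Folh1 it was 1.21 (1.11 to 1.31). Basolateral Slc26a1 went from 87.9 CPM to 38.5 CPM (31.7 to 46.3) at 64 h, and stood at 80.0 (65.3 to 97.0) at 96 h and 87.0 (75.5 to 99.7) at 28 d. The intervals of the 64 h library were clear of the other 3 GFP-positive libraries. The ratio at 64 h was 0.438 (0.352 to 0.540), from 111 against 425 UMIs, and it lay between 0.265 and 0.563 under 12 other settings. At 96 h and 28 d the ratios were 0.909 (0.726 to 1.13) and 0.989 (0.834 to 1.17), and the 96 h level was 2.08-fold (1.57 to 2.74) that of 64 h. TAL-like nuclei, with few UMIs of Slc26a1, had 14 without injury, 1 at 64 h and 7 at 96 h. The cluster led by Clu and Lcn2 supplied 300 of the 489 TAL-like nuclei at 64 h against 16 of 333 without injury, and the other TAL-like clusters held 0 and 14 of these UMIs, too few to read further.

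Of the citrate and dicarboxylate carriers, basolateral Slc13a3 stood at 180 CPM without injury. Its level was 352 CPM (331 to 374) in the 64 h library, 639 CPM (596 to 684) in the 96 h library and 271 CPM (251 to 293) in the 28 d library. No interval overlapped another, and all 3 injured libraries were above the one without injury. The ratios were 1.95 (1.78 to 2.14), 3.54 (3.22 to 3.90) and 1.503 (1.36 to 1.67). At 28 d the ratio stood at the limit of 1.5-fold and passed it under 6 of 12 other settings. Among those 6 was the setting without a UMI minimum, which cannot change a ratio. The lowest value was 1.30, within the cluster led by Slc5a12 and Folh1. Luminal Slc13a2 was at 90.0 CPM without injury. The 64 h library gave 88.1 CPM (77.6 to 99.6), the 96 h library 190 CPM (167 to 216) and the 28 d library 64.2 CPM (54.4 to 75.2). The 96 h library was the high one and the 28 d library the low one. Its ratios were 0.978 (0.835 to 1.15), 2.11 (1.80 to 2.48) and 0.713 (0.589 to 0.860). From 96 h to 28 d Slc13a2 stood at 0.337-fold (0.274 to 0.415) and Slc13a3 at 0.424-fold (0.382 to 0.471).

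The oxalate exchanger Slc26a6 was scarce throughout. In order of time the GFP-positive PT-like nuclei held 37, 8, 18 and 14 of its UMIs, or 7.66, 2.77, 14.0 and 5.91 CPM. The ratio at 64 h was 0.362 (0.146 to 0.790). At 96 h it was 1.83 with an interval that included 1 (0.978 to 3.29), and it was 1.05 in S1-like nuclei from a single UMI. At 28 d it was 0.772 (0.386 to 1.46).

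**Figure D4:**
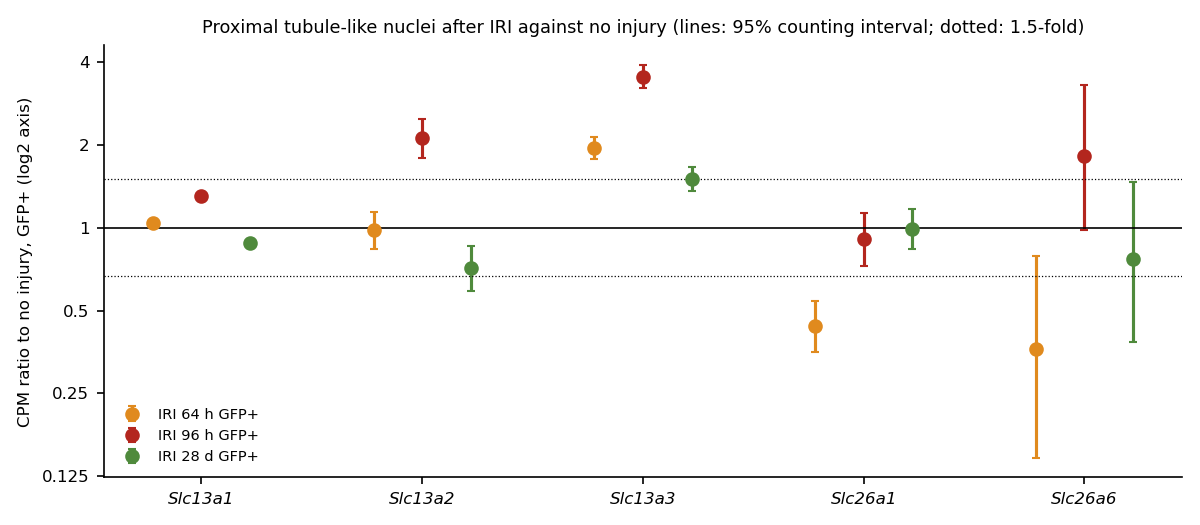
The ratio of each carrier's CPM to the GFP-positive library without injury is drawn on a log2 axis for 64 h, 96 h and 28 d in proximal tubule-like nuclei, with 95% counting intervals and dotted lines at 1.5-fold. Slc13a3 lies above 1 at all 3 times (1.95, 3.54 and 1.503), Slc26a1 lies at 0.438 at 64 h and near 1 later, and the intervals of Slc26a6 are the widest.

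The mix of PT-like nuclei changed between the libraries, and values were therefore also read within S1-like nuclei. In order of time they made up 46.3%, 57.0%, 10.7% and 45.7% of GFP-positive PT-like nuclei, while S3-like nuclei were 9.55%, 0.365%, 2.08% and 8.38%. In S1-like nuclei Slc13a3 stood at 2.37-fold (2.04 to 2.74), 4.88-fold (3.83 to 6.17) and 1.61-fold (1.35 to 1.93) of no injury. The S1-like class pools a pair of clusters whose mix shifted, since the one led by Slc5a2 supplied 781 of 1058 S1-like nuclei without injury, 143 of 1093 at 64 h, 6 of 241 at 96 h and 340 of 982 at 28 d. Within that cluster the Slc13a3 ratio was 1.89 (1.29 to 2.71) at 64 h and 1.34 (0.976 to 1.81) at 28 d, below the pooled S1-like value. Slc26a1 in S1-like nuclei was 0.413-fold (0.306 to 0.550) at 64 h and 1.09-fold (0.600 to 1.85) at 96 h, but within the cluster led by Slc5a2 its 64 h ratio was 0.854 with an interval that included 1 (0.467 to 1.45), from 15 UMIs. In PT-like nuclei without a segment it was 0.406 (0.289 to 0.559) at 64 h. The Slc13a2 ratios in S1-like nuclei were 1.07 (0.814 to 1.41), 2.38 (1.40 to 3.84) and 0.643 (0.435 to 0.932). In S3-like nuclei Slc13a2 at 96 h was 3.47-fold (1.76 to 6.35) that without injury, from 13 UMIs.

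The cluster led by Slc5a12 and Folh1 had nuclei of every GFP-positive library, 277, 950, 235 and 642 in order of time, and gave a comparison within 1 cluster. In it Slc13a3 stood at 224 CPM (184 to 271) before injury and, in order of time, at 374 CPM (341 to 409), 755 CPM (610 to 923) and 291 CPM (248 to 339). These are ratios of 1.67 (1.35 to 2.08), 3.36 (2.52 to 4.48) and 1.30 (1.01 to 1.67), each below the PT-like one. Slc13a2 was at 61.4, 70.9, 161 and 57.1 CPM, and its 96 h interval (98.1 to 248) was clear of the others. Slc26a1 was at 84.7 (60.5 to 115), 37.8 (27.9 to 50.1), 120 (67.4 to 199) and 103 CPM (78.6 to 134). Slc13a1 was at 5093, 4572, 6142 and 4120 CPM. The order of the libraries for Slc13a3 and the low 64 h value of Slc26a1 were the same here as over all PT-like nuclei.

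Markers of tubule state also differed between the libraries. The summed level of the 10 proximal tubule markers in PT-like nuclei was 15628 CPM in the GFP-positive library without injury and 12121, 9104 and 15988 CPM in those at 64 h, 96 h and 28 d. The 11 markers of tubule injury summed to 112, 931, 1043 and 211 CPM. Sox9, Cd44 and Lcn2 were at 0 in the PT-like nuclei of that first library. Slc13a3 and Slc13a2 were therefore highest, per UMI, in the library with the lowest marker sum, and their relation to tubule state was not tested.

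A separate cluster was led by the injury genes Vcam1, Havcr1, Krt20, Csf1 and Cd44 and was not given a cell type. It held 0 nuclei of the GFP-negative library, which allows up to 0.110% by the exact interval, and 67, 250, 337 and 317 nuclei of the GFP-positive libraries in order of time. Against PT-like nuclei of the same library, Slc13a1 in this cluster stood at 0.847-fold (0.773 to 0.927) without injury. After injury it stood at 0.435-fold (0.407 to 0.465, 64 h), 0.468-fold (0.430 to 0.509, 96 h) and 0.719-fold (0.674 to 0.767, 28 d). At the 3 times after injury the Slc13a3 ratios were 0.315 (0.240 to 0.408), 0.313 (0.232 to 0.413) and 0.393 (0.287 to 0.528). Without injury the ratio of Slc13a3 was 0.834 (0.526 to 1.26). The Slc26a1 ratio was 0.298 (0.0807 to 0.768) without injury, from 4 UMIs, so it was low in that library too. After injury it was 0.372 (0.157 to 0.759), 0.518 (0.251 to 0.967) and 0.306 (0.156 to 0.547). Slc13a2 was 0.569-fold (0.371 to 0.843) at 64 h, but its intervals at 96 h (0.488 to 1.01) and 28 d (0.570 to 1.37) included 1. In this cluster Slc13a1, Slc13a3 and Slc26a1 were thus below their PT-like level in each injured library. The 11 injury markers summed to 2266, 3135 and 2237 CPM in it at the 3 times, and to 3693, 3058 and 1282 CPM in TAL-like nuclei. The 10 proximal tubule markers summed to 3086, 2521 and 5719 CPM in this cluster at the 3 times, also below the PT-like nuclei.

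Depth differed between libraries, so shares of nuclei with a UMI were compared after each nucleus was thinned to 400 UMIs. This left out 4, 0, 0, 616 and 44 PT-like nuclei, listed from the GFP-negative library through the GFP-positive ones in order of time. Slc13a3 was seen in 4.22% (2.43 to 6.77), 6.61% (5.63 to 7.71), 13.5% (12.0 to 15.1), 21.4% (19.4 to 23.5) and 10.1% (8.83 to 11.4) of PT-like nuclei. Its share in CNT- and intercalated-like nuclei, which are not known to use it, was 2.53%, 0.704%, 2.63% and 2.11% in the GFP-positive libraries. These shares were below the PT-like ones. They came from small classes, with 112 CNT-like and 46 intercalated-like nuclei without injury before thinning, so how far below is uncertain. In TAL-like nuclei it was 0.3003%, 0.613%, 3.60% and 1.21%, and the summed level there rested on 8 UMIs without injury and 18 at 96 h, a ratio of 4.95 (2.05 to 13.2). The TAL-like class was not made of the same clusters in both, since a cluster led by Clu and Lcn2 supplied 16 of its 333 nuclei without injury and 397 of 406 at 96 h. A higher 96 h value was thus also counted in TAL-like nuclei, at a far lower level, and the part of this mix and the part of free RNA in it was not tested. The unthinned shares were 14.1%, 27.9%, 37.5%, 28.1% and 23.4%, and they follow depth as well as level. For Slc13a1 the shares of thinned PT-like nuclei were 22.4%, 63.4%, 64.5%, 73.8% and 63.0%. In CNT- and intercalated-like nuclei it was seen in 1.60%, 21.5%, 14.8%, 21.1% and 25.4%, and in TAL-like nuclei in 1.43%, 3.90%, 4.70%, 10.8% and 8.10%.

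For the other members the thinned shares were small. For Slc13a2 they were 3.43%, 3.37%, 3.71%, 7.72% and 2.66%, and 96 h was the library apart (6.48 to 9.12). Slc26a1 was seen in 1.06%, 3.77%, 0.992%, 3.22% and 3.71%, with the 64 h share (0.598 to 1.54) below that without injury (3.02 to 4.63). At 96 h its share in CNT- and intercalated-like nuclei was 5.26% (0.644 to 17.7), on 38 nuclei, which is no lower than in PT-like nuclei. Slc26a6 was at 0.157% to 0.528% in all 5 libraries. In S3-like nuclei of the GFP-positive library without injury the Slc13a1 share was 21.1% (15.9 to 27.1), no higher than the 21.5% (15.4 to 28.8) of CNT- and intercalated-like nuclei and above the 3.90% of TAL-like nuclei, and the part of free RNA in it was not tested.

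**Figure D5:**
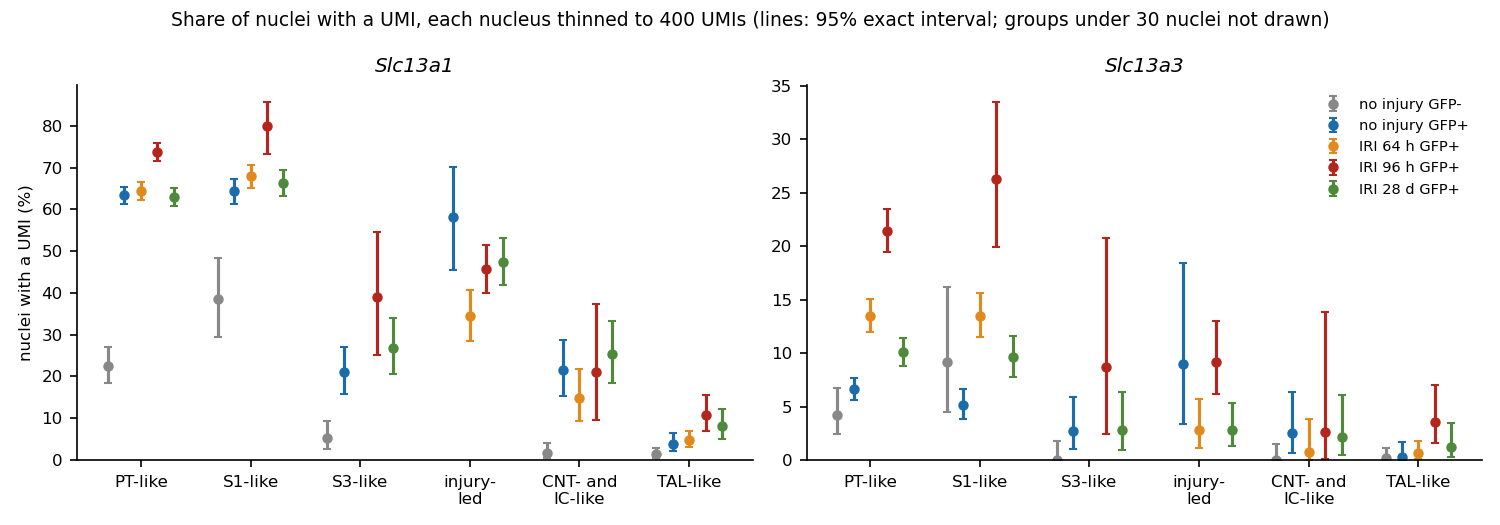
The share of nuclei with a UMI of Slc13a1 (left) and Slc13a3 (right) is given in percent after thinning to 400 UMIs, by nucleus group and library, with exact 95% intervals. Slc13a3 reaches 21.4% of PT-like nuclei at 96 h, and Slc13a1 stands at 21.1% of S3-like and 21.5% of CNT- and intercalated-like nuclei in the GFP-positive library without injury.

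The carriers were then set beside genes that handle the same anions, in lists given in the methods. Of the sulfate genes, 11 of 12 were measured in PT-like nuclei. At 64 h, 2 were at least 1.5-fold lower and 0 higher, at 96 h 4 lower and 2 higher, and at 28 d 1 lower and 1 higher, with list medians of 0.06, 0.13 and 0.03 on the log2 scale against 0.16, 0.29 and 0.06 over all genes. Over all genes measured, 14.9% were lower and 26.6% higher at 64 h, 15.9% and 39.2% at 96 h, and 12.1% and 16.5% at 28 d. The sulfate genes higher at 96 h, 18.2% of those measured, were thus a smaller share than over all genes, and those lower, 36.4%, a larger one. Papss2, which makes the active sulfate donor of the cell, was at 239 CPM without injury and at 0.746-fold (0.672 to 0.829), 0.620-fold (0.529 to 0.723) and 0.558-fold (0.491 to 0.632) at the 3 times. Its relative Papss1 was at 0.463-fold (0.271 to 0.748) at 96 h, and the sulfotransferase Sult1d1 at 0.388-fold (0.329 to 0.454). Slc35b2, which moves the activated sulfate into the Golgi, was 2.11-fold higher (1.43 to 3.08) at 96 h. Slc13a1 itself, at 1.31-fold, was not past 1.5-fold at 96 h.

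Of the genes of citrate and dicarboxylate use, 9 of 10 were measured. At 64 h, 2 were lower and 2 higher, at 96 h 0 and 3, and at 28 d 2 and 3, with medians of 0.33, 0.10 and -0.19 against 0.16, 0.29 and 0.06 over all genes. At 96 h the higher ones were 33.3% of those measured, against 39.2% of all genes, and at 28 d they were 33.3% against 16.5%. Slc25a1, the mitochondrial citrate carrier, went from 18.0 CPM to 1.68-fold (1.23 to 2.28), 3.15-fold (2.27 to 4.35) and 1.78-fold (1.29 to 2.45). Acly, which splits citrate in the cytosol, stood at 1.33-fold (1.05 to 1.69), 1.74-fold (1.30 to 2.30) and 1.63-fold (1.28 to 2.07), and the succinate receptor gene Sucnr1 at 2.00-fold (1.36 to 2.95), 2.02-fold (1.23 to 3.26) and 1.88-fold (1.25 to 2.84). The mitochondrial dicarboxylate carrier Slc25a10 was at 0.494-fold (0.423 to 0.574) at 64 h. Slc13a5, a citrate carrier related to the members, was at 0.356-fold (0.161 to 0.715) at 64 h, from 10 against 47 UMIs.

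The 3 listed organic anion transporter genes had values unlike those of Slc13a3. Their place in the membrane and their use of dicarboxylates were not measured. At 64 h 2 of the 3 were lower and 0 higher, at 96 h 1 and 0, and at 28 d 0 and 1, with medians of -1.66, 0.21 and -0.23. Of all genes 14.9% were lower at 64 h and 15.9% at 96 h, and 16.5% were higher at 28 d. Slc22a7 was at 72.8 CPM without injury. It was at 0.0571-fold (0.0292 to 0.101) in the 64 h library, at 0.0640-fold (0.0233 to 0.141) in the 96 h one and at 0.852-fold (0.698 to 1.04) in the 28 d one. Slc22a7 is among the leading genes of the S3-like cluster, whose share of PT-like nuclei was 9.55% without injury, 0.365% at 64 h and 2.08% at 96 h, and this mix moves with its ratio. Within PT-like nuclei without a segment Slc22a7 was at 0.251-fold (0.115 to 0.492) at 64 h, from 10 against 65 UMIs. Slc22a8 was at 0.299-fold (0.197 to 0.439), 1.16-fold (0.842 to 1.59) and 2.01-fold (1.62 to 2.49). Slc22a6 was at 0.726-fold (0.632 to 0.831), 1.29-fold (1.11 to 1.499) and 0.741-fold (0.640 to 0.857). At 64 h all of these stood below 1 while Slc13a3 stood at 1.95.

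Of the genes of oxalate handling and the other SLC26 exchangers, 4, 5 and 4 of 8 were measured at the 3 times. At 64 h 0 were lower and 1 higher, at 96 h 1 and 2, and at 28 d 1 and 1, with medians of 0.14, 0.35 and -0.29. The 96 h share of higher genes, 2 of 5, was close to the 39.2% of all genes. Slc26a8 was the highest of them at 96 h, 4.08-fold (2.22 to 7.52) from 25 against 23 UMIs. Of 10 partners of brush border exchange, all measured, 3 were lower and 2 higher at 64 h, 5 and 2 at 96 h, and 3 and 0 at 28 d, with medians of 0.06, -0.53 and -0.20. The lower ones at 96 h were 5 of 10, against 15.9% of all genes, and at 64 h and 28 d 3 of 10, against 14.9% and 12.1%. The carbonic anhydrases Car4 (0.394-fold, 0.595-fold and 0.401-fold) and Car14 (0.185-fold, 0.262-fold and 0.498-fold) were lower at all 3 times. Pdzk1, a scaffold of brush border transporters, stood at 1.06-fold (0.989 to 1.14), 1.26-fold (1.15 to 1.38) and 1.07-fold (0.986 to 1.15). The sodium bicarbonate cotransporter gene Slc4a4, also one of the proximal tubule markers, was at 0.573-fold (0.540 to 0.608) at 96 h.

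The pattern of each carrier over cell classes and libraries was compared with that of 9836 genes, over 35 sums of at least 50 nuclei on the scale log2(CPM + 10). The sums share libraries, and the proximal tubule sets most of the spread, so the coefficients are descriptions. B3gat2 (Pearson r = 0.95), Cyp2j5 (0.94) and RP23-306P12.2 (0.94) were most like Slc13a1. Osgin1 (0.89), Cyp2j5 (0.87) and Pdzk1 (0.87) were most like Slc13a2, and Neu1 (0.93), Amn (0.92) and Cyp2j5 (0.91) most like Slc13a3. Acot12 (0.88), Serpinf2 (0.87) and Kcnj15 (0.87) were most like Slc26a1. Among the members, Slc13a1 and Slc13a3 were the most alike (0.90), followed by Slc13a2 with Slc13a3 (0.84), while Slc26a6 had no coefficient above 0.12 with another member. For Slc26a6 the nearest genes were Fgd1 (0.65), Gtpbp1 (0.60) and Ndor1 (0.59), which in counts this sparse is no finding.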

How the data were processed

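The deposited matrices hold UMI counts per gene and nucleus from 10x Genomics droplet libraries of sorted nuclei. Per the submitters' processing notes the authors used bcl2fastq 2.17, STAR 2.5.1b and Cell Ranger 2.1 with mm10, and the series' design text names a pre-mRNA reference. The counts are raw and not normalised, and the rule that called barcodes is not given in the sources used here. The authors' Seurat clusters were not used here.

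Kept barcodes had 200 or more detected genes and no more than 10% mitochondrial UMIs. No doublet caller was applied. Counts were scaled to 10000 per nucleus, and 2000 variable genes (without the members and pathway genes, 50 in all), 30 principal components, 15 neighbours and Leiden resolution 1.0 (scanpy 1.11.5, seed 0) gave the clusters. Clusters were named by marker scores, in log2 ratios with 10 CPM added, with a margin of 0.3 (0.5 for segments) and at least 3 detected markers. These limits were set with the data known. Names end in "-like" because they rest on transcripts alone, and may differ from the authors' names.

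UMIs were summed per class and library and divided by the total. Levels carry exact Poisson, shares exact Clopper-Pearson and ratios exact conditional intervals at 95%. PCR copies are collapsed by UMI, but nuclei of 1 library are not replicates, and each group had 1 library. No p-value is given. A gene was called at a ratio of 1.5 either way and measured from 10 UMIs over both libraries. TMM factors came from edgeR 4.0.16 (R 4.3.3). The interval code was tested on simulated data. A count of 0 allows 3 counts.

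The members and lists were chosen with earlier results of these data known. The text names the members, the genes of the lists, the 3 genes most like each member (at least 200 UMIs), and leading or marker genes beside a result. The lists were sulfate handling (Slc13a4, Slc26a2, Slc26a11, Papss1, Papss2, Suox, Sult1a1, Sult1c2, Sult1d1, Bpnt1, Slc35b2, Slc35b3), citrate and dicarboxylate use (Slc13a5, Slc25a1, Slc25a10, Slc25a11, Acly, Aco1, Idh1, Mdh1, Sucnr1, Oxgr1), organic anion transporters (Slc22a6, Slc22a7, Slc22a8), oxalate and SLC26 (Slc26a3, Slc26a4, Slc26a7, Slc26a8, Slc26a9, Agxt, Grhpr, Hoga1) and brush border partners (Pdzk1, Slc9a3, Slc9a3r1, Slc9a3r2, Car2, Car4, Car14, Slc4a4, Atp1b1, Fxyd2). A gene of the citrate list and one of the brush border list are not reported here, and the lists' counts leave them out. The alternatives were TMM scaling, stricter filters (400 genes, 5%), resolutions 0.5 and 2.0, thinning to 400 and 600 UMIs, all nuclei, PT-like with the injury-led cluster, and no UMI minimum. The last of these changes which genes are measured but no ratio. S1-like nuclei alone, PT-like nuclei without the cluster led by Fgg, and the cluster led by Slc5a12 and Folh1 alone were added after seeing the data.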

Additional observations from a re-analysis of the deposited data

How the results depend on the processing

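The counts of members at 96 h and for the GFP sort stayed within 1.5 times the reported ones under all settings run, but single calls changed within that limit. Slc26a6 at 96 h kept its call under 9 of 12 settings. In the GFP sort Slc26a6, not called as reported, passed 1.5-fold with TMM scaling, at 1.56. At 64 h the number at least 1.5-fold lower, 2 as reported, was 1 (Slc26a1) within the cluster led by Slc5a12 and Folh1, where Slc26a6 had under 10 UMIs and was not counted. The number at least 1.5-fold higher at 28 d, 1 as reported (Slc13a3 at 1.503), was 0 with TMM scaling, with the stricter filters, at resolution 0.5, over all nuclei, with the injury-led cluster added and within the cluster led by Slc5a12 and Folh1. The number at least 1.5-fold lower at 28 d, 0 as reported, was 1 with TMM scaling (Slc13a2), 1 with nuclei thinned to 600 UMIs (Slc26a6) and 1 in S1-like nuclei (Slc13a2). A count can hold with other members: Slc13a1 at 96 h ranged from 0.990 to 1.57, and Slc26a6 at 96 h from 1.05 to 1.93. Slc13a3 ranged from 1.67 to 2.37 at 64 h and from 2.68 to 4.88 at 96 h, and Slc13a2 at 96 h from 1.60 to 2.62. Over all nuclei the GFP ratio of Slc13a2 reached 4.46 and that of Slc26a1 7.90 with nuclei thinned to 400 UMIs. At resolution 0.5 PT-like nuclei were 39.1% of the 64 h library. The cause of each change was not tested. No paired analysis was possible because each group is 1 library and no label pairs animals. Depth limits Slc26a6 most, with 8 to 37 UMIs in PT-like nuclei.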

Other observations

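The injury-led cluster had nuclei of the GFP-positive library without injury too, 67 of 3508, and their carrier levels stood closer to those of PT-like nuclei than after injury for Slc13a1 (3167 CPM, against 1686 CPM at 64 h, 2291 CPM at 96 h and 2362 CPM at 28 d). Slc13a3 in this cluster was at 150 CPM (95.4 to 226) before injury and, in order of time, at 111 CPM (85.1 to 142), 199.7 CPM (150 to 261) and 107 CPM (78.6 to 141), and the difference between libraries was not tested.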
